A study of Homo sapiens with 6 samples.

Results

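The laminin and basement membrane set held 9 genes of the 27264 gene rows in the deposited count table, chosen by symbol: LAMA3, LAMB3, LAMA5, LAMB1, LAMB2, LAMC1, HSPG2, AGRN and COL17A1. Each of the 9 symbols matched 1 Ensembl identifier. The RNA came from DLD-1, a human colorectal cancer cell line of epithelial type, sequenced as 6 libraries. They came from 3 clones labelled WT2, WT5 and WT37, all with the genotype label ZEB2 WT, and each clone gave 1 library without DOX (mDOX, cell type label epithelial) and 1 with DOX (pDOX, cell type label mesenchymal). The description labels of all 6 libraries also hold TR21, and the labels do not say what TR21 or ZEB2 WT stands for. DOX is the usual short form of doxycycline, and ZEB2 is a repressor of epithelial genes. The series concerns epithelial-to-mesenchymal transition driven by ZEB2, so the comparisons ask whether genes of the basement membrane differed with DOX within the clones and whether they differed between clones. A clone grown from 1 line is the replicate here, and cells given DOX that lack the ZEB2 WT label were not analysed here, so an effect of DOX itself and one of ZEB2 cannot be told apart.

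The basement membrane is the thin sheet of matrix under an epithelium. Laminins are its main adhesive proteins, each a trimer of 1 alpha, 1 beta and 1 gamma chain. LAMA3 and LAMB3 encode chains of laminin-332, the ligand of hemidesmosomes, and LAMA5, LAMB1 or LAMB2, and LAMC1 encode those of laminin-511 and laminin-521, which are widespread under intestinal epithelium. HSPG2 encodes perlecan and AGRN agrin, heparan sulfate proteoglycans that bind laminin networks, and COL17A1 encodes collagen XVII, a transmembrane collagen of hemidesmosomes. The libraries hold 3' tags, 1 per transcript end, so levels in CPM (reads of a gene scaled to a fixed total of reads in genes) do not grow with transcript length and were compared between genes on that scale.

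On GRCh38, GENCODE 29 places the laminin-332 and hemidesmosome genes LAMA3 (ENSG00000053747) on chromosome 18 from 23689443 to 23956222 (plus strand), LAMB3 (ENSG00000196878) on chromosome 1 from 209614870 to 209652466 (minus strand) and COL17A1 (ENSG00000065618) on chromosome 10 from 104031286 to 104085957 (minus strand). It places the other laminin chain genes LAMA5 (ENSG00000130702) on chromosome 20 from 62307955 to 62367312 (minus strand), LAMB1 (ENSG00000091136) on chromosome 7 from 107923799 to 108003255 (minus strand), LAMB2 (ENSG00000172037) on chromosome 3 from 49121114 to 49133118 (minus strand) and LAMC1 (ENSG00000135862) on chromosome 1 from 183023460 to 183145592 (plus strand). The proteoglycan genes are HSPG2 (ENSG00000142798) on chromosome 1 from 21822245 to 21937297 (minus strand) and AGRN (ENSG00000188157) on chromosome 1 from 1020123 to 1056118 (plus strand). All 9 are protein-coding, and the values are reads over whole genes, not over single exons.

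The sequences before the transcription starts of 4 of these genes are shown because LAMB2, LAMB3 and COL17A1 had the largest average differences with DOX, and LAMA3 encodes the alpha chain that pairs with LAMB3. They are the 250 bases before the RefSeq start on GRCh38.p14, written 5′ to 3′ on the gene's strand. Capitals mark CACCT or its reverse complement AGGTG, the core of the E-box that ZEB proteins bind, extended to CACCTG or CAGGTG where the sixth base is present, and TGANTCA, the site of AP-1 factors.
LAMA3 (chr18:23872770-23873019, plus strand): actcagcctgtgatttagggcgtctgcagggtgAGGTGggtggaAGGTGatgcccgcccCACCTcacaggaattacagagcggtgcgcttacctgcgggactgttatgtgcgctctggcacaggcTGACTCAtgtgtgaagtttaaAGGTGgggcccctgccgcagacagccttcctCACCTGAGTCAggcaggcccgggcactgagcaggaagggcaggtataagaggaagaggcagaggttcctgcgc
LAMB3, most upstream of 3 starts (chr1:209652426-209652675, minus strand): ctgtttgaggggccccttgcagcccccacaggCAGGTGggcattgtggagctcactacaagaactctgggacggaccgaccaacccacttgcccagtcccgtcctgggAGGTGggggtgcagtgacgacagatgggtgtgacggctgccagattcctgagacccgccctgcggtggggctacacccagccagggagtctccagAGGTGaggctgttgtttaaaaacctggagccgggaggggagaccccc
LAMB3, most downstream of 3 starts (chr1:209651375-209651624, minus strand): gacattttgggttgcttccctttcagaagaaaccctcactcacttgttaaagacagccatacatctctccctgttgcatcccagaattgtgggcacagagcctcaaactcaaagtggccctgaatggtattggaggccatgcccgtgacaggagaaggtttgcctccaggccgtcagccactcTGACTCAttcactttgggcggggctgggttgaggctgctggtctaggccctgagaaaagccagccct
LAMB2 (chr3:49133051-49133300, minus strand): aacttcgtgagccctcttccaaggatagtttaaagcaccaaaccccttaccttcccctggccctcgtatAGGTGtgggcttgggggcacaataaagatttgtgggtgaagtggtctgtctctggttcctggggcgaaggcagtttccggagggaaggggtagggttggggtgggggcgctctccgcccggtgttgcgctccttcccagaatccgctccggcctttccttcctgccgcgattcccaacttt
COL17A1 (chr10:104085881-104086130, minus strand): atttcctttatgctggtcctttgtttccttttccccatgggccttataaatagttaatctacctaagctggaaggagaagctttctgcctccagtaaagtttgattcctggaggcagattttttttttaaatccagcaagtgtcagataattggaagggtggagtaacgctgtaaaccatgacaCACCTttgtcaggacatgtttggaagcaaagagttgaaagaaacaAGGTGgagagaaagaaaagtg
The LAMA3 window held 5 matches to CACCT on either strand, 1 of them within CACCTG, and 2 matches to TGANTCA, of which 1 overlaps CACCTG. This LAMA3 start lies inside the gene as GENCODE 29 draws it (chromosome 18, 23689443 to 23956222), and transcripts from it share their 3' end with the longer ones, so 3' tags count them together. The most upstream LAMB3 window held 3 matches to CACCT, 1 of them within CACCTG, the COL17A1 window 2 and the LAMB2 window 1, and the most downstream LAMB3 window held 1 TGANTCA and 0 CACCT. The middle LAMB3 start, whose window overlaps the most upstream one and is not printed, had 2 matches to CACCT. Over all 35116 RefSeq starts, 45.4% of windows held CACCT, 17.5% CACCTG and 6.57% TGANTCA. A match describes the letters only, and binding was not measured.

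Reads in genes numbered 5440093 to 7164426 per library. ZEB2 itself had 3 to 9 reads per library without DOX and 9 to 22 with DOX, higher in all 3 clones. It did not pass edgeR's test (adjusted p = 0.781, and 0.225 with the clone as a block). A ZEB2 transcript that lacks the natural 3' end would not be counted here. The summed level of 8 colon epithelium markers, of which CDX1 was at 0, was 5617 to 7053 CPM without DOX and 3671 to 4768 CPM with DOX, lower with DOX in all 3 clones, and its part in the differences with DOX was not tested. KRT18 and KRT8 made up most of that sum. CDX2, an intestinal transcription factor on the same list, went the other way, from 458 to 689 CPM in WT2, from 451 to 541 CPM in WT5 and from 601 to 855 CPM in WT37 (edgeR with the clone as a block, log2 fold change 0.42 ± 0.09 SE, adjusted p = 0.0464). In that fit EPCAM (-0.73 ± 0.12 SE, adjusted p = 0.0230) and KRT18 (-0.69 ± 0.11 SE, adjusted p = 0.0135) passed as lower, beside 1.3% of all genes passing. Without the block none of these passed (edgeR, adjusted p = 0.717 for CDX2, 0.693 for EPCAM and 0.605 for KRT18). KRT8, CDH1, KRT20 and VIL1 were lower on average and did not pass in either fit. Markers of fibroblasts (6 of 8 with a row) summed to at most 1.95 CPM in a library and those of endothelium (4 of 6) to at most 0.496 CPM, and COL1A2 and PECAM1 were at 0 in all libraries. Leukocyte markers (4 of 5) summed to 4.96 to 11.2 CPM, most of it CD14, and 6 markers of a mesenchymal state to 11.2 to 15.9 CPM without and 9.46 to 19.4 CPM with DOX. FN1 was the largest part of the last sum in each library (4.01 of 9.46 CPM in WT2 with DOX) and was lower with DOX in each clone. ZEB1 (1 read in each library without DOX and 4 to 11 with it) and VIM (1 to 5 reads without and 5 to 15 with DOX) were higher in each clone with no overlap on the CPM scale. Neither was tested, and 6.55% of tested genes were higher with DOX without overlap. CDH2 was higher with DOX in WT2 and WT5 and lower in WT37 (7 reads without and 5 with DOX). SNAI2, at up to 3 reads per library, was lower with DOX in WT2 and WT5 and higher in WT37. In bulk libraries, fewer cells that express a gene and less RNA per cell cannot be told apart.

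The 9 genes covered a wide range of levels. LAMB1 (beta 1 chain) had the highest mean over the 6 libraries, 62.2 CPM (50.1 to 72.02), followed by LAMC1 (gamma 1 chain) with 57.2 CPM (47.0 to 80.3). Their ranges overlapped, with LAMB1 above LAMC1 in 4 of 6 libraries. LAMB3 (beta 3 chain) followed with 36.1 CPM (28.6 to 42.1) and was below LAMC1 in all 6 libraries. LAMA5 (alpha 5 chain, 24.4 CPM) and LAMB2 (beta 2 chain, 16.6 CPM) each overlapped the gene before it in this order. COL17A1, at 5.77 CPM, was below LAMB2 in all 6 libraries, and its range overlapped that of LAMA3 (alpha 3 chain, 4.32 CPM), which overlapped AGRN (4.07 CPM). HSPG2 had 1 read in all, in WT37 without DOX. Its 5 other libraries were at 0 reads, which allows up to 0.421 to 0.551 CPM at 3 reads per library, so a change of HSPG2 was not detectable at this depth and no fold was computed. Its detection also rests on the position of the annotated transcript end, where the gene LDLRAD2 lies on the opposite strand. Against the 11732 genes tested, LAMB1 lay above 73.6% of them and AGRN above 15.6%.

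**Figure D1:**
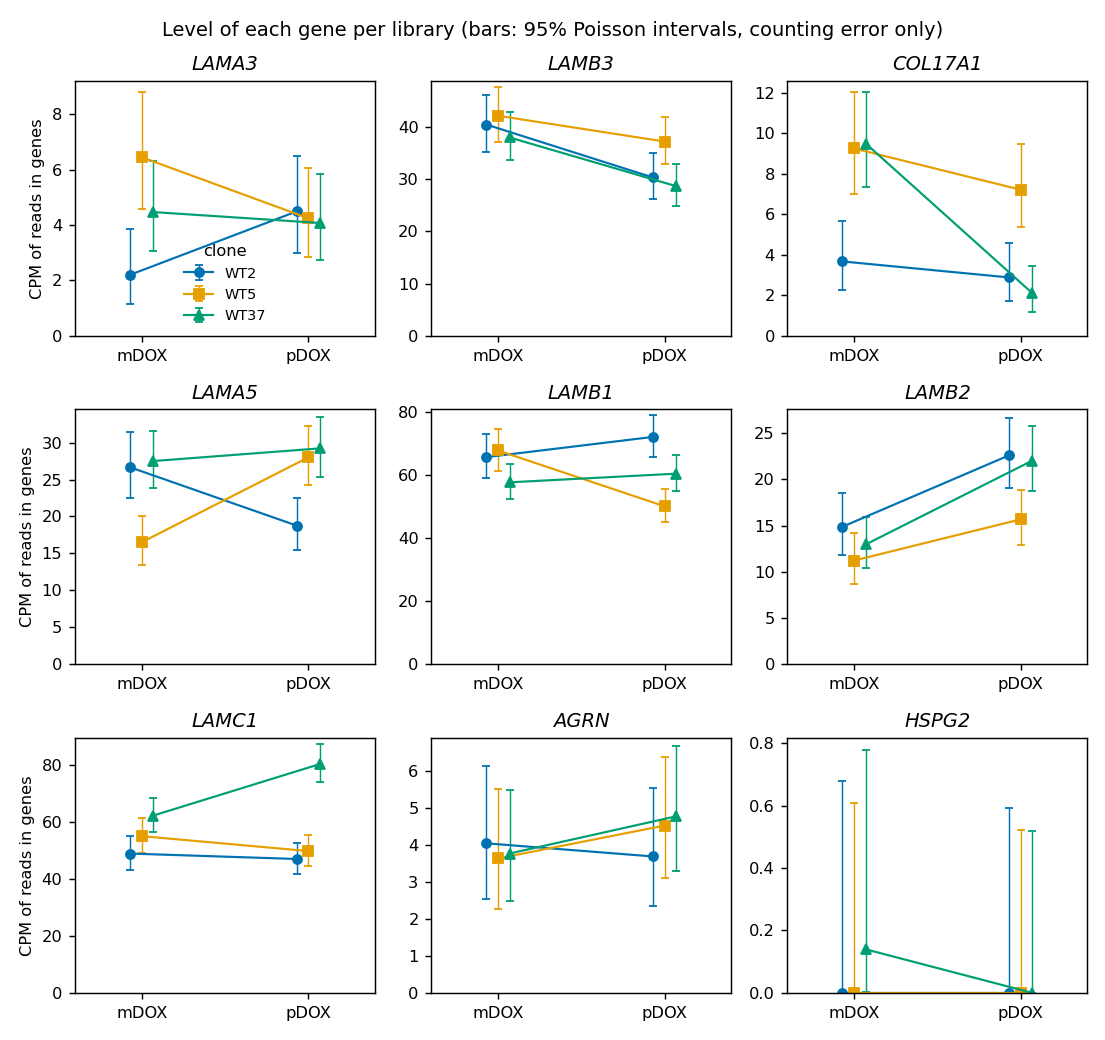
Level of each of the 9 genes per library, in CPM of reads in genes on axes that start at 0, without DOX (mDOX) and with DOX (pDOX), with lines joining the 2 libraries of a clone and bars for 95% Poisson intervals. LAMB2 was higher and LAMB3 lower with DOX in all 3 clones, COL17A1 went from 9.49 to 2.11 CPM in WT37, and HSPG2 lay at 0 in 5 of 6 libraries.

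With DOX, 0 of the 8 tested genes passed at an adjusted p under 0.05 in edgeR's quasi-likelihood test over all genes, where percent called was 0.0% of 11732 genes. With the clone as a block, 0 of the 8 passed against 1.3% of all genes (0.656% higher and 0.639% lower with DOX). At p under 0.05 before adjustment, LAMB2 and LAMB3 passed without the block (6.04% of all genes) and LAMB2, LAMB3 and COL17A1 with it (12.9%). The 8 genes split evenly, 4 above and 4 below 0, and their median log2 difference was -0.01, beside 0.01 over all genes tested.

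LAMB2 encodes the beta 2 chain of laminin-521. Its level went from 14.9 to 22.6 CPM in WT2, from 11.2 to 15.7 CPM in WT5 and from 13.0 to 22.05 CPM in WT37. The pDOX libraries were all above the mDOX libraries with no overlap, which 6.55% of tested genes showed in that direction, and LAMB2 was higher in each clone, as 21.3% of genes were. The means were 13.0 ± 1.83 and 20.1 ± 3.84 CPM (SD, n = 3 each), with a log2 fold change of 0.59 ± 0.21 SE (edgeR without the block, adjusted p = 0.678) and 0.58 ± 0.16 SE with the block (adjusted p = 0.111). Within clones the log2 ratio was 0.60 in WT2 (95% counting interval 0.20 to 1.02), 0.48 in WT5 (0.03 to 0.94) and 0.76 in WT37 (0.39 to 1.15). Each of these intervals left out 0, but they cover counting error only. Clones within a DOX group differed by more than that over all genes (chi-square per degree of freedom 6.11 to 18.3). The share of all tested genes with such intervals was not computed. In the blocked fit LAMB2 passed without WT5 (0.63, edgeR, adjusted p = 0.0461), where 736 of 11893 genes passed, and with no filter on low counts (0.59, adjusted p = 0.0384), where 518 of 23630 passed. It did not pass without WT2 (0.59, adjusted p = 0.492) or without WT37 (0.53, adjusted p = 0.761).

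LAMB3 encodes the beta chain of laminin-332 and went the other way. Its level went from 40.4 to 30.3 CPM in WT2, from 42.1 to 37.2 CPM in WT5 and from 38.0 to 28.6 CPM in WT37. On the CPM scale the libraries with DOX were all below those without, as in 4.56% of tested genes. The highest with DOX was WT5 (37.2 CPM) and the lowest without was WT37 (38.0 CPM). CPM leaves out the TMM factors of edgeR's fit, 0.991 and 1.02 for these libraries, which reverse their order, so the groups overlap on that scale. The means were 40.2 ± 2.09 and 32.05 ± 4.53 CPM (SD, n = 3 each), and the log2 fold change was -0.36 ± 0.16 SE (edgeR, adjusted p = 0.813; with the block -0.37 ± 0.13 SE, adjusted p = 0.214). The counting interval left out 0 in WT2 (-0.42, interval -0.70 to -0.13) and WT37 (-0.41, -0.68 to -0.14) and held it in WT5 (-0.18, -0.43 to 0.07).

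COL17A1 (collagen XVII) had 20, 56 and 68 reads without DOX in WT2, WT5 and WT37 and 18, 51 and 15 with DOX, or 3.68, 9.25 and 9.49 CPM against 2.89, 7.21 and 2.11 CPM. The level was lower with DOX in all 3 clones, as 13.8% of tested genes were, but the groups overlapped, since WT2 without DOX lay below WT5 with DOX. The mean went from 7.47 ± 3.29 to 4.07 ± 2.75 CPM, with a log2 fold change of -0.90 ± 0.49 SE (edgeR, adjusted p = 0.903) and -0.96 ± 0.35 SE with the block (adjusted p = 0.275). The clones differed in size: the log2 ratio was -2.17 in WT37 (interval -3.09 to -1.35), 4.51-fold lower, and -0.35 in WT2 and -0.36 in WT5, whose intervals held 0. The unblocked value moved to -0.36 when WT37 was left out, to -1.45 when WT5 was left out and to -1.63 when only WT5 with DOX was left out. With no filter on low counts COL17A1 passed in the blocked fit (edgeR, adjusted p = 0.0287), as did 518 of 23630 genes.

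LAMA3 encodes the alpha chain of laminin-332 and had few reads, 12, 39 and 32 without DOX in WT2, WT5 and WT37 and 28, 30 and 29 with DOX. The 3 libraries without DOX spread 2.92-fold and enclosed those with DOX. The level was 4.37 ± 2.12 CPM without and 4.27 ± 0.210 CPM with DOX (SD, n = 3 each; log2 fold change -0.07 ± 0.37 SE, edgeR, adjusted p = 0.996). In WT2 the log2 ratio was 1.03 with a counting interval of 0.004 to 2.14, and in WT5 and WT37 it was -0.60 and -0.13 with intervals that held 0. These ratios leave out edgeR's TMM factors. Those of WT2 (0.952 without and 0.976 with DOX) would move the lower bound of 0.004 below 0.

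LAMA5, the alpha chain of laminin-511 and laminin-521, went from 26.7 to 18.8 CPM in WT2, from 16.5 to 28.0 CPM in WT5 and from 27.5 to 29.2 CPM in WT37. It was lower with DOX in WT2 (log2 ratio -0.51, interval -0.87 to -0.14) and higher in WT5 (0.76, interval 0.41 to 1.12), with little difference in WT37 (0.09). Over the clones the log2 fold change was 0.06 ± 0.23 SE (edgeR, adjusted p = 0.993), and the groups overlapped. Exons of ADRM1 lie on the opposite strand over the last bases of LAMA5, and the labels do not say if reads were assigned by strand, so this count is uncertain.

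LAMB1 and LAMC1, the beta and gamma chains of laminin-511, were the most abundant of the set. LAMB1 went from 65.6 to 72.02 CPM in WT2, from 67.7 to 50.1 CPM in WT5 and from 57.6 to 60.4 CPM in WT37. The groups overlapped, and only WT5 had a counting interval without 0 (log2 ratio -0.44, interval -0.65 to -0.23). The log2 fold change was -0.10 ± 0.17 SE (edgeR, adjusted p = 0.982). Exons of LAMB1 overlap those of DLD, a mitochondrial dehydrogenase gene on the opposite strand, outside the last bases of LAMB1. LAMC1 went from 48.9 to 47.0 CPM in WT2, from 55.01 to 49.8 CPM in WT5 and from 62.3 to 80.3 CPM in WT37, and the log2 fold change was 0.05 ± 0.18 SE (edgeR, adjusted p = 0.994). WT37 with DOX stood above the other libraries, and the log2 ratio was 0.37 in WT37 (interval 0.19 to 0.55) against -0.06 in WT2 and -0.14 in WT5.

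AGRN (agrin) had 22 to 34 reads per library. Its level was 3.82 ± 0.209 CPM without and 4.33 ± 0.569 CPM with DOX (SD, n = 3 each), a log2 fold change of 0.15 ± 0.29 SE (edgeR, adjusted p = 0.990). The highest library was 1.31 times the lowest on the CPM scale, the smallest such ratio among the 8 tested genes, and the counting intervals of all 6 libraries overlapped. A non-coding gene, AL645608.5, lies on the same strand over the last bases of AGRN.

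**Figure D2:**
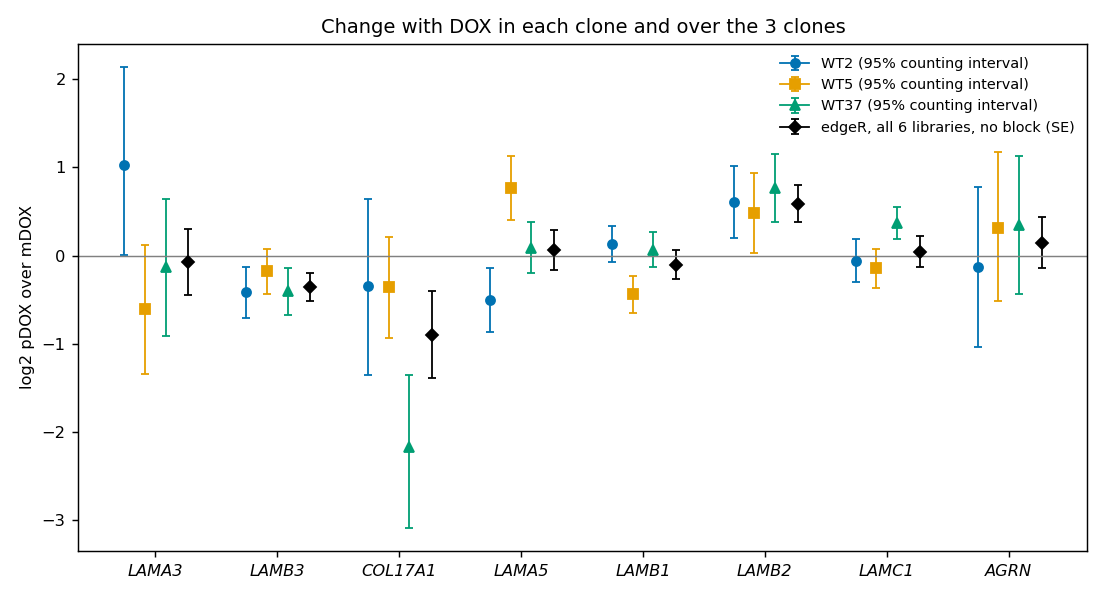
Log2 ratio of pDOX over mDOX for the 8 tested genes in each clone, with 95% counting intervals, and edgeR's log2 fold change over all 6 libraries without the block (black diamonds, bars SE). LAMB2 was above 0 in all 3 clones, LAMA5 was below 0 in WT2 and above 0 in WT5, and COL17A1 reached -2.17 in WT37.

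The balance of chains was read within each library, where the scaling of libraries does not enter. LAMB2 made up 12.3%, 9.28% and 12.0% of the reads of the 3 beta chain genes without DOX in WT2, WT5 and WT37 (658 to 778 reads per library) and 18.1%, 15.2% and 19.8% with DOX (728 to 791 reads). The LAMB2 share was larger with DOX in each clone and the groups did not overlap. It is drawn from the same reads as the levels of LAMB1, LAMB2 and LAMB3 above, so it is not a separate observation. LAMB3 went from 33.4% to 24.3% in WT2 (exact binomial 95% intervals 29.8% to 37.2% and 21.3% to 27.4%) and from 35.0% to 25.8% in WT37 (31.6% to 38.4% and 22.8% to 28.99%). In WT5 the LAMB3 share was 34.8% without and 36.1% with DOX, and it was LAMB1 that had the smaller share there, 55.9% without and 48.6% with DOX. LAMA3 was below LAMA5 in all 6 libraries, at 7.64% to 28.1% of the reads of LAMA3 and LAMA5. This share leaves out the alpha chain gene LAMA1 (2.11 to 4.67 CPM) and rests on the LAMA5 count, which is uncertain because of ADRM1. The shares are given as descriptions, without a test.

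**Figure D3:**
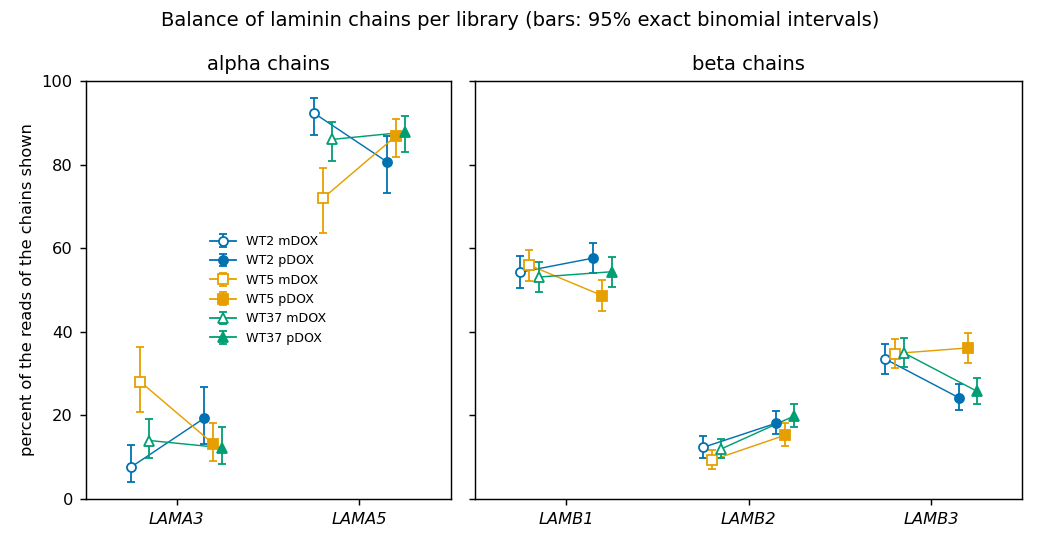
Share of each laminin chain among the reads of the alpha or beta chain genes shown, in percent per library, with open symbols for mDOX, filled symbols for pDOX and bars for 95% exact binomial intervals. The LAMB2 share was larger with DOX in each clone (up to 19.8% in WT37), and LAMA3 was below LAMA5 in all 6 libraries.

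Between clones, with DOX as a covariate, 0 of the 8 tested genes passed edgeR's test of the clone term, against 6.84% of all genes, and 2 of them, LAMC1 and COL17A1, had an unadjusted p under 0.05 (24.8% of all genes). Pair by pair, 0 of the 8 passed, against 1.02% of all genes for WT5 minus WT2, 5.83% for WT37 minus WT2 and 5.92% for WT37 minus WT5. The COL17A1 mean was 3.28 CPM for WT2, 8.23 CPM for WT5 and 5.80 CPM for WT37, with a log2 difference of 1.30 ± 0.45 SE between WT5 and WT2 (edgeR, adjusted p = 0.286). Its WT2 libraries and the WT37 library with DOX were the low ones. With no filter on low counts this difference passed (1.29, edgeR, adjusted p = 0.0188), where the clone test called 1783 of 23630 genes.

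The LAMC1 mean was 47.9 CPM for WT2, 52.4 CPM for WT5 and 71.3 CPM for WT37. On the CPM scale both WT37 libraries lay above the other 4, as in 21.6% of tested genes, and both WT2 libraries lay below, as in 13.7%. The place of WT2 does not hold with edgeR's TMM factors. These were 0.952 for WT2 without DOX (48.9 CPM) and 0.991 for WT5 with DOX (49.8 CPM), and they reverse the order of these libraries. No other of the 8 genes had both libraries of a clone apart from the other 4 in CPM. Among all tested genes this was seen for WT2 above in 4.56%, WT5 above in 8.22%, WT5 below in 8.69% and WT37 below in 8.32%. The log2 difference was 0.45 ± 0.15 SE between WT37 and WT2 (edgeR, adjusted p = 0.0963) and 0.36 ± 0.15 SE between WT37 and WT5 (adjusted p = 0.161), and without WT5 the first passed (0.45, adjusted p = 0.0344), where the clone test called 1782 of 11893 genes. LAMB2 was at -0.51 ± 0.19 SE for WT5 minus WT2 (edgeR, adjusted p = 0.329), and LAMB1 was at -0.34 ± 0.15 SE for WT37 minus WT2 (adjusted p = 0.199). For AGRN the 3 log2 differences between clones lay between -0.02 and 0.04, each with an SE of 0.33 to 0.35.

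**Figure D4:**
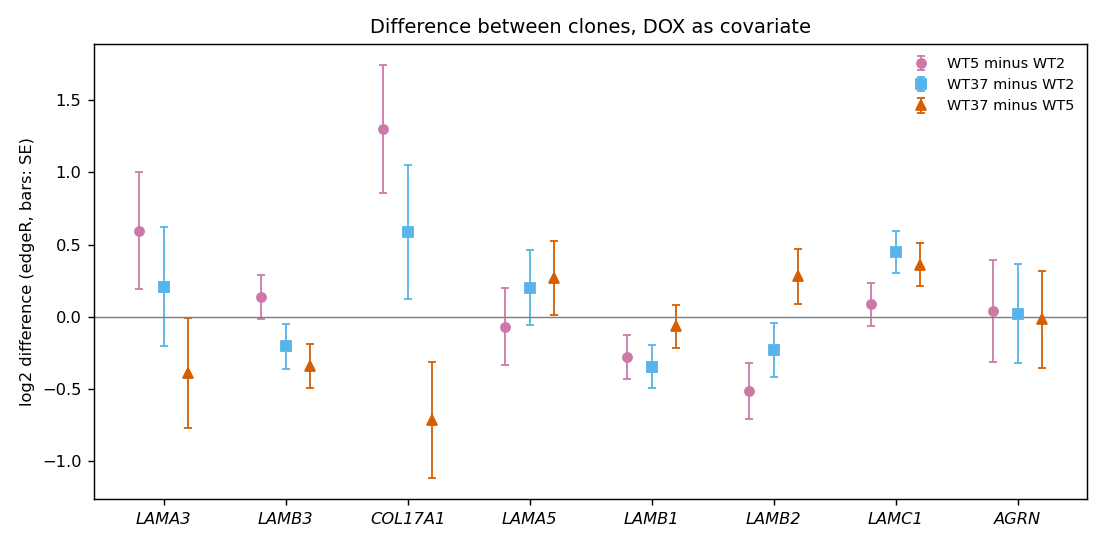
Log2 differences between pairs of clones for the 8 tested genes from edgeR with DOX as covariate (bars SE). COL17A1 had the widest differences, 1.30 for WT5 minus WT2 and -0.71 for WT37 minus WT5. The value of -0.71 rested on the WT37 library with DOX (2.11 CPM), since without DOX WT37 was at 9.49 and WT5 at 9.25 CPM. LAMC1 was higher in WT37 than in both other clones.

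Other genes of the basement membrane came from 5 lists. Of 73 genes listed, 42 were tested, and 0 of them passed with DOX in edgeR's test with or without the block (before adjustment, 1 had p under 0.05 without it, beside 6.04% of all genes, and 6 with it, beside 12.9%). Among 5 other laminin chains, LAMA1 (log2 fold change -0.29 ± 0.39 SE) and LAMA2 (0.39 ± 0.49 SE) were tested, both at up to 33 reads per library. Of 23 collagen IV, nidogen and related genes, 6 were tested, with a median of -0.23. TINAGL1, a matrix protein that binds laminin and integrins, had 95.3 ± 24.3 CPM without and 60.2 ± 17.9 CPM with DOX (log2 fold change -0.69 ± 0.25 SE, edgeR, adjusted p = 0.699). It was lower with DOX in WT2 (-0.97) and WT37 (-1.29) and higher in WT5 (0.25). COL4A2, a chain of collagen IV, had -0.40 ± 0.21 SE (with the block -0.42 ± 0.13 SE, edgeR, adjusted p = 0.154). FRAS1, a matrix protein of the epidermal basement membrane, had -0.06 ± 0.19 SE.

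Of 14 hemidesmosome and receptor genes, 12 were tested, 6 above and 6 below 0 with DOX (median 0.01). The most abundant were the integrin chain ITGA6 (log2 fold change -0.02 ± 0.15 SE), the syndecan SDC1 (-0.17 ± 0.13 SE) and the tetraspanin CD151 (0.04 ± 0.12 SE). Between clones 3 of the 12 passed the clone test, beside 6.84% of all genes, and are named after their values were seen: the hemidesmosome integrin chain ITGB4 (edgeR, adjusted p = 0.0398), the linker PLEC (adjusted p = 0.0309) and the collagen receptor chain ITGA2 (adjusted p = 0.0398). The ITGB4 mean was 128 CPM for both WT2 and WT5 and 80.6 CPM for WT37. For PLEC the means of the clones in that order were 160, 191 and 110.5 CPM, and for ITGA2 25.7, 31.9 and 45.1 CPM. ITGB4 and PLEC were thus lowest in WT37 and ITGA2 highest there.

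Of 20 enzymes that build or edit heparan sulfate, the chains carried by perlecan and agrin, 15 were tested (10 above and 5 below 0, median 0.07). EXT2, which elongates the chains, had 0.07 ± 0.17 SE, B3GALT6 of the linker region 0.17 ± 0.12 SE and the sulfotransferase NDST1 0.18 ± 0.17 SE. Of 11 enzymes that cut laminins, perlecan or collagen XVII, 7 were tested (6 above and 1 below 0, median 0.22), with ADAM9 at 0.40 ± 0.22 SE, CTSL at 0.28 ± 0.23 SE and ADAM10 at 0.13 ± 0.18 SE. ADAM9 was higher with DOX in WT2 (0.53) and WT37 (1.03) and lower in WT5 (-0.37). Between clones 2 of the 15 heparan sulfate enzymes and 1 of the 7 cleaving enzymes passed the clone test, beside 6.84% of all genes. They are named after their values were seen: EXT1, HPSE and CTSL (edgeR, adjusted p = 0.0437, 0.0463 and 0.0470). Means for WT2, WT5 and WT37 were 43.5, 54.9 and 37.8 CPM for EXT1 and 17.3, 10.1 and 9.88 CPM for HPSE. For CTSL they were 43.7, 54.1 and 77.0 CPM. In the blocked fit without WT5, where 736 of 11893 genes passed, TINAGL1 (-1.19, edgeR, adjusted p = 2.50e-04), COL4A2 (-0.54, adjusted p = 0.0315), ADAM9 (0.74, adjusted p = 0.00772) and CTSL (0.46, adjusted p = 0.0307) passed. Without WT37 none of these 4 passed in that fit, and the values were -0.37 for TINAGL1, -0.44 for COL4A2, 0.064 for ADAM9 and 0.18 for CTSL. Without WT2 none of the 4 passed either. With no filter on low counts TINAGL1 passed without the block (-0.68, edgeR, adjusted p = 0.0041), where 206 of 23630 genes passed.

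**Figure D5:**
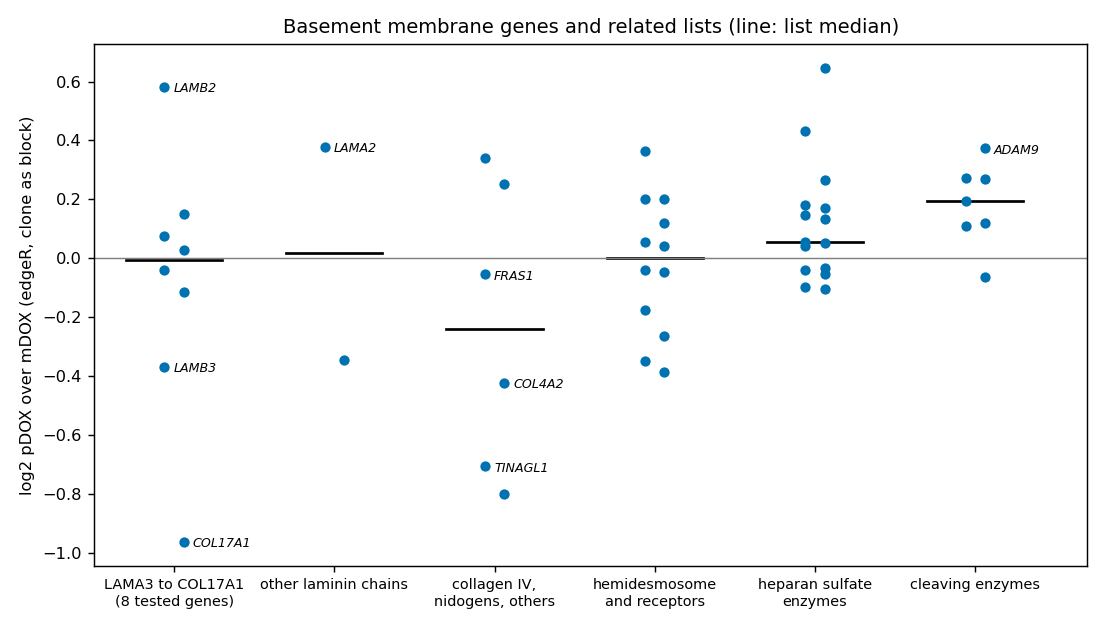
Log2 pDOX over mDOX from edgeR with the clone as a block for each tested gene of the set (first column) and of the 5 related lists, with a line at each list's median. The values of LAMB2 (0.58), LAMB3 (-0.37) and COL17A1 (-0.96) lie on both sides of 0, and no gene shown passed at an adjusted p under 0.05.

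By likeness of log2 CPM over the 6 libraries, the closest tested genes were PDGFC and LINC00467 for LAMB2, BSPRY and SFN for LAMB3, PALD1 and MALSU1 for COL17A1, STIL and METTL5 for LAMA3, HLCS and APLN for LAMB1, ZNF761 and COG3 for LAMC1, PDLIM2 and ERCC2 for AGRN, and CAPN10 and an identifier named Y_RNA for LAMA5. Pearson's r was between 0.98 and 1.00 for these pairs, each picked as the highest among 11732 genes over 6 libraries that share clones and scaling, so it is a description only.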

How the data were processed

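Per the labels' protocols, RNA was isolated by Nucleospin RNA Plus, and the 6 libraries are QuantSeq 3' mRNA-Seq FWD. The authors deposited raw read counts per Ensembl gene and the submitters' processing notes list GRCh38 and DESeq2. No aligner, counter, annotation or strand setting is named there or in the labels. Left out were 4 rows of reads given to no gene (unmapped 4.29% to 5.25%, multimapping 11.8% to 16.0%, outside features 8.72% to 11.7%, ambiguous 6.85% to 7.40%). Gene symbols were looked up by Ensembl identifier in the supplied name table (22056 named) and GENCODE 29 (166 more), positions from GENCODE 29.

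The tests used edgeR 4.0.16 under R 4.3.3 (glmQLFit with the robust option, glmQLFTest, TMM, filterByExpr, 11732 genes, Benjamini-Hochberg over all genes, threshold 0.05), with limma 3.58.1 and DESeq2 1.42.0 as alternatives. Standard errors are the log2 change divided by the square root of F, which is approximate. The first fit had no clone term. Deviations from the group means correlated between the 2 libraries of a clone (r = 0.49, 0.28 and 0.53 across genes for WT2, WT5 and WT37), so the clone number paired the libraries. Blocked values stand beside the results of LAMB2, LAMB3, COL17A1, COL4A2, ZEB2, CDX2, EPCAM and KRT18. For the other named genes the values with DOX come from the fit without the block unless the block is named. Clones were compared with DOX as a covariate, assumed to act alike in them. Whether DOX acted differently in the clones could not be tested with 1 library per clone and condition. Reads carry no molecular identifiers, so Poisson and binomial intervals at 95% and the floor of 3 reads cover counting error only. Scripts were tested on simulated data. All 9 genes and the 3 most abundant tested genes of each related list are named, with any past the threshold; the other list genes enter the counts only, 1 gene was left out of the lists and their counts, and genes and lists were chosen with earlier results of these data known.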

Additional observations from a re-analysis of the deposited data

Results flagged for a closer look

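LAMA5 differed with DOX in opposite directions in 2 clones: the log2 ratio of pDOX over mDOX was -0.51 in WT2 and 0.76 in WT5, with counting intervals that left out 0 in both. These intervals cover counting error only, and the LAMA5 count is uncertain because of ADRM1. Only the genes of the set were screened for this, and the share over all tested genes was not computed. Of the related genes named, TINAGL1, ITGA6 and ADAM9 also had such intervals on opposite sides of 0 in different clones. Each clone had 1 library per condition, so the difference between the clones was not tested.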

How the results depend on the processing

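With DOX, 0 genes passed in edgeR without the block, 152 with the replicate block, 206 with no filter and 57 with DESeq2, and with 1 clone or 1 library left out the count was 0 to 35 (35 when WT5 with DOX was dropped). The blocked count was 518 with no filter and 5 to 736 without 1 clone (8 without WT2, 736 without WT5 and 5 without WT37). Of the basement membrane genes, 2 passed in the blocked fit with no filter (LAMB2 and COL17A1), and leaving out a clone gave 0 to 1 (LAMB2 without WT5). The replicate block changed no call of the 8 genes. The clone test called 802 genes, 248 with no DOX term, 1783 with no filter, 436 with DESeq2 and 129 to 1782 without 1 clone (406 without WT2, 1782 without WT5 and 129 without WT37). It called 1 of the basement membrane genes with no filter (COL17A1) and 0 to 1 without 1 clone (LAMC1 without WT5). The cause of these changes was not tested. A fit without the robust option was chosen after seeing the data and called 0, 183 and 751 genes in the 3 fits.

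Genes near 0 changed sign. LAMA3 was at 0.0094 with limma-voom and, blocked, at 0.014 with DESeq2. Leaving out a clone or library, the log2 fold change ranged from -0.42 to 0.30 for LAMA3, -0.24 to 0.34 for LAMA5, -0.28 to 0.052 for LAMB1, -0.19 to 0.16 for LAMC1, -0.19 to 0.13 for FRAS1, -0.19 to 0.10 for ITGA6, -0.012 to 0.12 for CD151, -0.11 to 0.19 for EXT2 and -0.077 to 0.27 for ADAM10. In the blocked fit these ranges were -0.41 to 0.28 for LAMA3 (0.052 without WT37), -0.23 to 0.37 for LAMA5, -0.22 to 0.045 for LAMB1, -0.12 to 0.12 for LAMC1, -0.11 to 0.0019 for FRAS1, -0.15 to 0.10 for ITGA6 and -0.038 to 0.11 for EXT2. LAMB2, LAMB3, COL17A1 and AGRN kept their sign in all fits with DOX. LAMA3 and AGRN, with at most 39 and 34 reads per library, have wide counting intervals, and HSPG2 could not be tested.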
